A study of Homo sapiens with 4 samples.

Results

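The epithelial to mesenchymal transition (EMT) genes described here are CDH1, EPCAM, CDH2, VIM, FN1, SNAI1, SNAI2, ZEB1, ZEB2 and TWIST1. They were taken by gene symbol from the deposited array table, with 1 probe set per gene, and all 10 were found among 17687 genes with a symbol and 21448 probe sets in all. The arrays came from A549, an established line from a human lung adenocarcinoma, whose leucine zipper gene LDOC1 was depleted by a short hairpin RNA. In 2 of the 4 samples the depleted cells also expressed H2BK120R, a histone H2B that cannot receive the monoubiquitin of the H2Bub1 mark, and in the other 2 they carried the empty vector. Both groups thus share the line, the hairpin and culture in puromycin at 5 µg/mL, and RNA was taken from cultures above 90% confluency. Per the submitters' design text, the hairpin raised H2Bub1 and the mutant histone lowered it, so the comparison asks which transcripts differ when the mark is lowered in depleted cells. H2Bub1 was not measured on the arrays, cells with an unmutated H2B construct were not analysed here, and the labels name neither the number of clones behind a subline nor whether replicates came from separate cultures. The p-values therefore cover only the spread from array to array, part or all of which may be technical.

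In EMT, epithelial cells give up their lateral junctions and take on the shape and motility of mesenchymal cells. The cadherin switch is its usual molecular sign: E-cadherin, encoded by CDH1, gives way to N-cadherin, encoded by CDH2, while the intermediate filament vimentin (VIM) and the matrix protein fibronectin (FN1) increase. Transcription factors of the SNAI, ZEB and TWIST families drive the change, and the SNAI and ZEB zinc finger proteins are known to repress CDH1 through E-boxes in its promoter. A549 is known as a line of mixed state that holds epithelial keratins and vimentin at the same time.

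Of the 10 genes, CDH1 showed the clearest difference, and none passed the adjusted threshold. CDH1 was higher and CDH2 lower on both arrays with H2BK120R than on both vector arrays, the vimentin and fibronectin genes overlapped between the groups, and the factors differed in both directions. Levels are log2 values as deposited, and differences are H2BK120R minus vector on that scale. The test was limma's, with p-values adjusted by Benjamini and Hochberg's method across the 21448 probe sets, of which 0% had an adjusted p under 0.05 and 6.7% (1437) an unadjusted p under 0.05, 3.62% higher and 3.08% lower with H2BK120R. Among the 10 genes the counts were 0 and 1, and the 1 was CDH1. Both arrays of one group lay beyond both of the other for 5 of the 10 genes, 3 higher and 2 lower with H2BK120R, where 36.5% of all probe sets did so, 18.6% higher and 17.9% lower. A count of 5 among 10 is thus not far from that background. The median difference was -0.01 over the 10 genes and 0 over all probe sets.

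**Figure D1:**
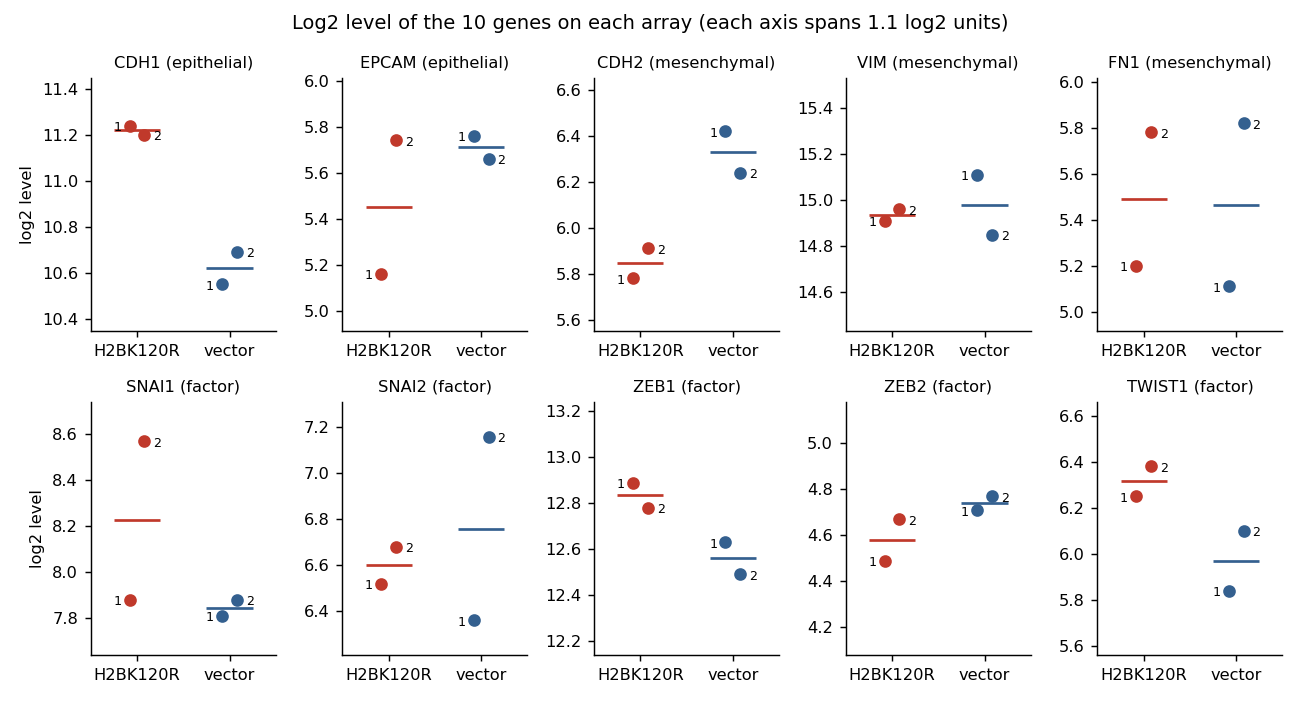
Log2 level (y axis, each spanning the same range) of the 10 genes on the 2 arrays with H2BK120R (red) and the 2 vector arrays (blue). Points are arrays with their replicate number and bars are group means. The groups are separate for CDH1, CDH2, ZEB1, ZEB2 and TWIST1 and overlap or touch for the other 5 genes.

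The arrays were close to each other as a whole, with medians between 6.40 and 6.43 and Pearson correlations across probe sets between 0.990 and 0.994. LDOC1 was at 8.37 and 8.66 with H2BK120R, against 8.0 and 8.33 with the vector, a difference of 0.35 ± 0.23 (SE) with a limma adjusted p of 0.790, which compares depleted cells with depleted cells. All 4 keratin genes taken as epithelial markers had a mean at or above the median level of all probe sets, 6.41, and KRT8 was at 17.13 and 17.20 with H2BK120R and at 17.11 and 17.15 with the vector. The other 3 did not overlap between the groups, beside 36.5% of all probe sets, and differed in both directions. KRT7 differed by -0.315 ± 0.115 (SE, unadjusted limma p of 0.0192, adjusted 0.722), KRT19 by -0.475 ± 0.277 and KRT18 by 0.195 ± 0.104. All 4 markers of alveolar type II cells, the surfactant genes SFTPC, SFTPA1 and SFTPB and the protease gene NAPSA, were below that median on every array, between 3.19 and 4.45. Of 6 fibroblast markers 5 were measured, 4 of them below the median level, and their summed log2 level was between 26.17 and 27.35 with H2BK120R and between 26.62 and 27.75 with the vector. Leukocyte (4 of 5 measured) and endothelial (5 of 5) markers all had a mean below the median level. Their summed levels were 18.11 to 19.69 with H2BK120R and 17.22 to 19.03 with the vector for leukocytes, and 18.07 to 18.43 with H2BK120R and 17.86 to 18.24 with the vector for endothelium. No detection calls were given, so a level below the median of all probe sets may be background, and levels of different genes are not ranked because probe sets differ in their response.

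CDH1 encodes E-cadherin, the calcium-dependent adhesion receptor of epithelial cells. Its level was 11.24 and 11.20 with H2BK120R, against 10.55 and 10.69 with the vector, with means of 11.22 ± 0.03 with H2BK120R and 10.62 ± 0.10 with the vector (SD, n = 2 each). Both arrays with the mutant histone were above both vector arrays, and the gap between the groups was several times the gap within either. The difference was 0.60 ± 0.15 (SE), a fold of 1.52, with a 95% confidence interval of 0.26 to 0.94 and an unadjusted limma p of 0.00241. After adjustment over all probe sets the p was 0.650, so the difference did not pass. In the order of unadjusted p-values CDH1 ranked 76 of 21448, and 6.49% of probe sets had a difference of this size or more in either direction. In bulk RNA, fewer cells that express a gene and less of its RNA per cell cannot be told apart.

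EPCAM encodes an epithelial surface glycoprotein that takes part in cell adhesion and is often lost in EMT. Its level was 5.16 and 5.74 with H2BK120R, against 5.76 and 5.66 with the vector. The arrays with the mutant histone differed from each other more than the group means did, and the level was below the median of all probe sets on every array. The difference was -0.26 ± 0.32 (SE), with a 95% interval of -0.95 to 0.43 and a limma adjusted p of 0.889. Without H2BK120R replicate 1, the lowest array, it was 0.03. The epithelial genes of the group thus had differences of opposite sign, only that of CDH1 being larger than its replicate spread.

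CDH2 encodes N-cadherin, the cadherin of neural and mesenchymal cells. Its level was 5.78 and 5.91 with H2BK120R, against 6.42 and 6.24 with the vector. Both arrays with the mutant histone were below both vector arrays, at levels around or below the median of all probe sets. The difference was -0.485 ± 0.281 (SE), a fold of 0.714, and its 95% interval of -1.10 to 0.13 included 0. The unadjusted limma p was 0.113 and the adjusted p 0.769. Among all probe sets, 12.2% differed by as much or more in either direction. After each gene's own mean was subtracted, CDH1 minus CDH2 was 0.63 and 0.46 on the arrays with H2BK120R and -0.70 and -0.38 on the vector arrays. These values combine the CDH1 and CDH2 differences already given into a difference of 1.085 between the groups, and add no separate evidence. An exact permutation of the labels of 2 and 2 arrays gives no two-sided p below 0.333 for such a value.

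VIM encodes vimentin, the main intermediate filament of mesenchymal cells, and is also made by many cultured carcinoma lines. Its level was 14.91 and 14.96 with H2BK120R, against 15.11 and 14.85 with the vector. Both values with the mutant histone lay between the vector values. The difference was -0.045 ± 0.116 (SE), the 95% interval was -0.30 to 0.21, and the limma adjusted p was 0.952. This interval is the narrowest of the 10 genes, and VIM was brighter than 98.6% of probe sets.

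FN1 encodes fibronectin, a glycoprotein of the extracellular matrix. Its level was 5.20 and 5.78 with H2BK120R, against 5.11 and 5.82 with the vector. Here the arrays of replicate 1 were low and those of replicate 2 high in both groups, and the group means were 5.49 with H2BK120R and 5.465 with the vector. The difference was 0.025 ± 0.351 (SE), and the 95% interval of -0.75 to 0.80 leaves room for a difference as large as that of CDH1 in either direction. All FN1 values were below the median level of all probe sets.

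**Figure D2:**
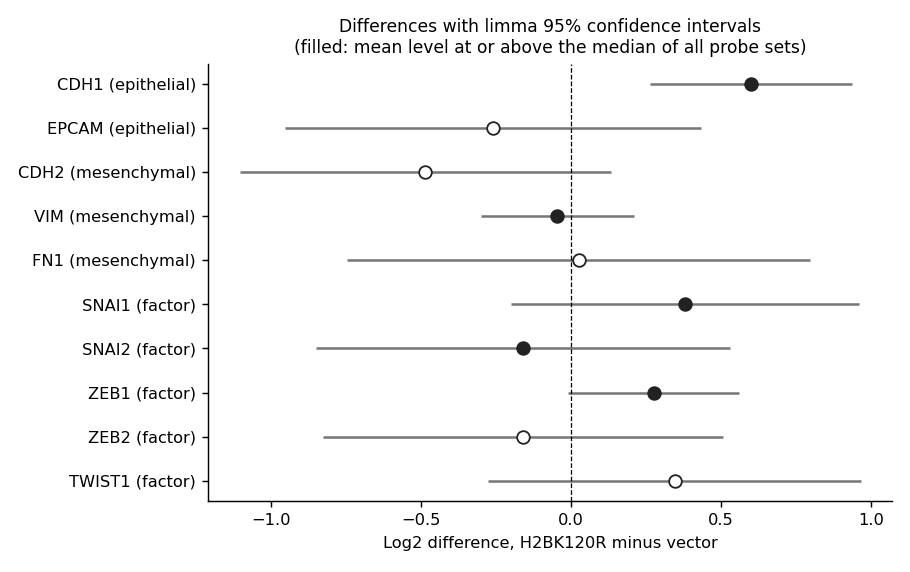
Log2 difference of each gene, H2BK120R minus vector (x axis), with limma's 95% confidence interval (line); filled points are genes whose mean level was at or above the median of all probe sets. The interval of CDH1, 0.26 to 0.94, is the only one of the 10 that does not include 0, and ZEB1 comes next with -0.01 to 0.56.

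Among the factors, SNAI1 and SNAI2 encode the zinc finger repressors Snail and Slug. SNAI1 was at 7.88 and 8.57 with H2BK120R, against 7.81 and 7.88 with the vector. The higher mean with the mutant histone came from replicate 2, while replicate 1 equalled the higher vector array. The difference was 0.38 ± 0.26 (SE), with an unadjusted limma p of 0.176 and an adjusted p of 0.803, and leaving out H2BK120R replicate 2 gave 0.035 and leaving out H2BK120R replicate 1 gave 0.725. SNAI2 was at 6.52 and 6.68 with H2BK120R, against 6.36 and 7.16 with the vector, so the vector arrays enclosed both others. Its difference was -0.16 ± 0.31 (SE) with a limma adjusted p of 0.937. Leaving out vector replicate 2 gave 0.24 and leaving out vector replicate 1 gave -0.56.

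ZEB1 and ZEB2 encode paralogous proteins with 2 zinc finger clusters that repress epithelial genes and are held down by the miR-200 family. ZEB1 was at 12.89 and 12.78 with H2BK120R, against 12.63 and 12.49 with the vector. Both arrays with the mutant histone were above both vector arrays, as for CDH1, the gene that ZEB1 is known to repress. The difference was 0.275 ± 0.130 (SE), a fold of 1.21, with a 95% interval of -0.01 to 0.56, an unadjusted limma p of 0.0579 and an adjusted p of 0.745. ZEB2 was at 4.49 and 4.67 with H2BK120R, against 4.71 and 4.77 with the vector. Its groups did not overlap either, but the gap between the nearest arrays was small and every value was below the median of all probe sets. The difference was -0.16 ± 0.30 (SE) with a limma adjusted p of 0.935.

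TWIST1 encodes a basic helix-loop-helix factor that acts in mesoderm development and EMT. It was at 6.25 and 6.38 with H2BK120R, against 5.84 and 6.10 with the vector. The groups did not overlap, with all values below the median of all probe sets. The difference was 0.345 ± 0.283 (SE), with an unadjusted limma p of 0.248 and an adjusted p of 0.833. Of the 5 factors, 3 were thus higher and 2 lower with H2BK120R, against 49.9% of all probe sets higher and 49.4% lower, and 0 had an unadjusted p under 0.05.

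Sequence upstream of the start sites was compared for the word that the zinc fingers of SNAI and ZEB proteins are known to bind. RefSeq windows (GRCh38.p14) were matched for 5 of the 10 genes, CDH2, VIM, FN1, ZEB1 and ZEB2. CDH1, EPCAM, SNAI1, SNAI2 and TWIST1 were not matched. In the 250 bases before each start, the E-box CACCTG, or CAGGTG when read on the other strand, occurred in 17.5% of 35116 windows of the same length. It occurred in 2 of the 7 windows of ZEB1 and in 0 of the 5 windows of CDH2, VIM, FN1 and ZEB2. The ZEB1 window with 2 matches, at positions -242 and -85 from the start, is chr10:31318966-31319215 on the plus strand. It held the most matches of the 7 ZEB1 windows, and 2.53% of all windows held 2 or more. That share is for single windows, and this one was picked as the highest of 7, so the share does not say how unusual it is. The only ZEB2 window is chr2:144520120-144520369 and the first of 2 CDH2 windows is chr18:28177131-28177380, both on the minus strand. They are shown because ZEB1 and ZEB2 are paralogs with differences of opposite sign, 1 above and 1 below the median level of all probe sets, and because CDH2 is the cadherin of the switch that was matched. The ZEB2 difference was smaller than its SE, and a relation between the word and the sign of a difference was not tested. Capitals mark the E-box, and each sequence runs 5′ to 3′ toward the start.
ZEB1: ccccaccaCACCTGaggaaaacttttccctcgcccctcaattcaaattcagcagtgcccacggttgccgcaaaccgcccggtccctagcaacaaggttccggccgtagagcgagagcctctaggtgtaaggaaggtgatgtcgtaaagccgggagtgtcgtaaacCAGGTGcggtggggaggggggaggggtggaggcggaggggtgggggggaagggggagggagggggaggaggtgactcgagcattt
ZEB2: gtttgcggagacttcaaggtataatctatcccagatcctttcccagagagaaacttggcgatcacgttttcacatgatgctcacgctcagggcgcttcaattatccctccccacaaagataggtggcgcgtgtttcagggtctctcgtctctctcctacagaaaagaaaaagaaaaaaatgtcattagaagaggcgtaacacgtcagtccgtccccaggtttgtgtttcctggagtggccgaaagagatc
CDH2: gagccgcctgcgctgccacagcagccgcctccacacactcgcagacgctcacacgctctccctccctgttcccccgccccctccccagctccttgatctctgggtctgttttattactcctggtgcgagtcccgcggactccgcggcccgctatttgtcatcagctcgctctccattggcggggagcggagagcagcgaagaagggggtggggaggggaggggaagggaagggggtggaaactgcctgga
The ZEB1, ZEB2 and CDH2 windows hold 14, 12 and 17 CpG dinucleotides, where the median over all windows is 11. A match describes the letters and not a bound site.

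**Figure D3:**
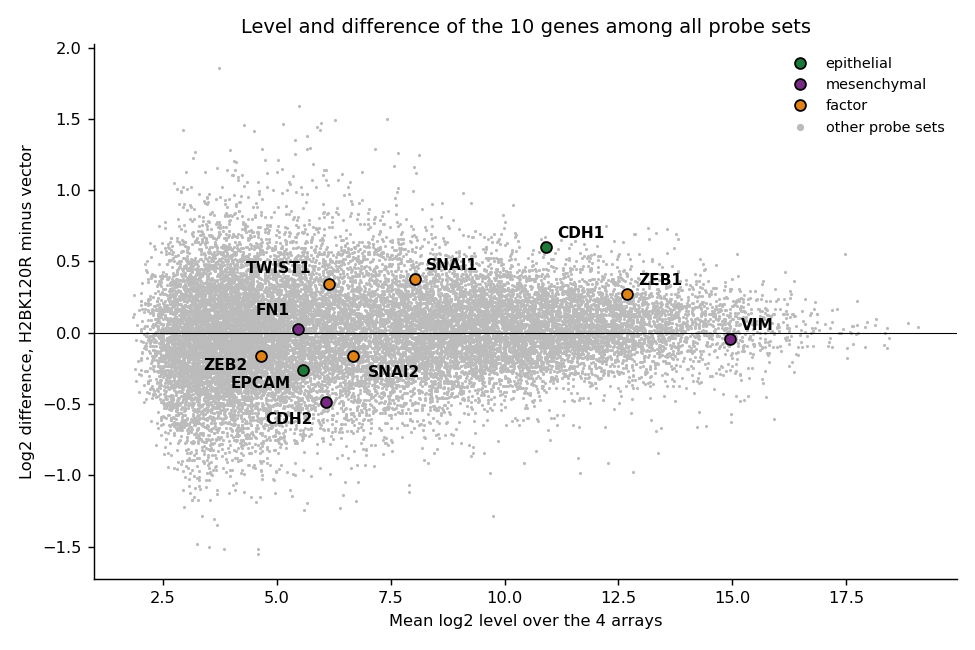
Mean log2 level over the 4 arrays (x axis) against the log2 difference, H2BK120R minus vector (y axis), for all 21448 probe sets (grey) and the 10 genes, coloured by role. CDH1 at 0.60 is among the higher differences at its level, while EPCAM, CDH2, FN1, ZEB2 and TWIST1 lie on the left, where the grey cloud is wide.

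Beyond the 10 genes, 5 lists of genes around the EMT program held 100 symbols, of which 91 were measured. None of the 91 passed the adjusted threshold, and 5 had an unadjusted p under 0.05, beside 6.7% of all probe sets. These 5 were PKP2, JUP, KLF5, AXL and FAP. The lists did not stand out by this count, and their medians are set beside 0 for all probe sets.

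The genes of adherens junctions, which E-cadherin helps to hold together, and of desmosomes had a median difference of 0.245 over 17 measured members of 18, with 10 higher and 7 lower. Their groups did not overlap for 8 members, 7 higher and 1 lower with H2BK120R, beside 36.5% of all probe sets, 18.6% higher and 17.9% lower. Over the 14 members at or above the median level, the median was 0.118, with 7 higher and 7 lower. All probe sets at or above that level had a median of 0.03, with 44.7% lower. The median of the 14 was not taken with 1 array left out. PKP2, which encodes the desmosomal plaque protein plakophilin 2, was at 10.54 and 10.39 with H2BK120R, against 9.67 and 10.10 with the vector, a difference of 0.58 ± 0.19 (SE) with a limma adjusted p of 0.693. JUP, which encodes plakoglobin, a catenin of both junction types, was at 13.03 and 12.97 with H2BK120R, against 12.17 and 12.90 with the vector. For both genes every array with the mutant histone was above every vector array, but vector replicate 1 was much the lowest. The catenin gene CTNNA1, which links cadherins to actin, and DSG2, a desmosomal cadherin gene, differed by 0.31 ± 0.15 and 0.25 ± 0.13 (SE), also without overlap. Leaving out vector replicate 1 gave 0.365 for PKP2, 0.10 for JUP, 0.095 for CTNNA1 and 0.27 for DSG2. Averaged over the list, vector replicate 1 deviated from the gene means by -0.19 and vector replicate 2 by 0.03, against 0.09 and 0.07 with H2BK120R. Without vector replicate 1 the list median was 0.10, still with 10 of 17 higher, and 0 members instead of 2 had an unadjusted p under 0.05. Leaving out another array gave medians of 0.13 (H2BK120R replicate 1), 0.16 (H2BK120R replicate 2) and 0.27 (vector replicate 2). CDH1 itself was low on both vector arrays and differed by 0.53 without vector replicate 1.

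Genes of epithelial identity split evenly, with 9 higher and 9 lower of 18 measured and a median of -0.005, which was -0.123 without H2BK120R replicate 1, -0.0575 without H2BK120R replicate 2, -0.06 without vector replicate 1 and 0.0175 without vector replicate 2. KLF5, a zinc finger factor of epithelia, was at 13.43 and 13.56 with H2BK120R, against 13.24 and 12.99 with the vector, and differed by 0.38 ± 0.13 (SE) with an unadjusted limma p of 0.0149 and an adjusted p of 0.722. CD24, a surface glycoprotein gene, differed by 0.40 ± 0.19 with overlapping groups, and was 0.02 without vector replicate 1, the low array. ESRP1, whose product drives epithelial splicing, differed by -0.565 ± 0.339 (SE) and CDS1, which encodes a phospholipid enzyme, by 0.52 ± 0.34. Both were at levels below the median of all probe sets. Of the 18 genes, 4 did not overlap between the groups, 1 higher and 3 lower with H2BK120R, a smaller share than the 36.5% of all probe sets. The 5 of the 18 genes at or above the median level, 3 higher and 2 lower, had a median difference of 0.27. For all probe sets at or above that level it was 0.03. The 5 differences were 0.40 (CD24), 0.38 (KLF5), 0.27 (ELF3), -0.09 (SPINT2) and -0.285 (EHF). Their median was not taken with 1 array left out. Without vector replicate 1, CD24 fell to the 0.02 given above and KLF5 rose to 0.505, so the median of 0.27 may depend on that array.

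Of 25 measured mesenchymal markers, 9 were higher, 15 lower and 1 equal, with a median of -0.045. It was -0.145 without vector replicate 1 (8 higher, 17 lower) and -0.07 without vector replicate 2 (12 higher, 13 lower). Without H2BK120R replicate 1 the median was -0.03 (11 higher, 14 lower), and without H2BK120R replicate 2 it was -0.095 (10 higher, 15 lower). Among the 10 at or above the median level, 8 were lower and 2 higher, with a median of -0.125, beside the 44.7% lower given above. The 8 include ACTA2 (-0.025 ± 0.250, SE) and TPM1 (-0.03 ± 0.11), whose differences were far smaller than their SE. This count was not taken with 1 array left out. AXL, a receptor tyrosine kinase gene tied to mesenchymal carcinoma cells, was at 13.12 and 13.21 with H2BK120R, against 13.45 and 13.44 with the vector. The groups were clearly apart, and the difference was -0.28 ± 0.12 (SE) with an unadjusted limma p of 0.0380 and an adjusted p of 0.745. FAP, a fibroblast surface protease gene, differed by 0.995 ± 0.429 (SE), and its 4 values of 2.69 and 4.10 with H2BK120R and 2.71 and 2.09 with the vector overlapped at low levels. FBN1, which encodes fibrillin 1 of matrix microfibrils, differed by -0.555 ± 0.293 (SE), and PDGFRB, a growth factor receptor gene of mesenchymal cells, by 0.51 ± 0.31. Differences of both signs thus occurred among the markers with the smallest p. Of the 25 markers, 7 did not overlap between the groups, 1 higher and 6 lower with H2BK120R. That is a smaller share than the 36.5% of all probe sets (18.6% higher and 17.9% lower).

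The other EMT transcription factors had 6 higher and 8 lower of 14 measured, with a median of -0.11, and 0 had an unadjusted p under 0.05. Those with the smallest p were the E-protein gene TCF4 (0.32 ± 0.185, SE), the SOX family gene SOX4 (-0.265 ± 0.156), RUNX2, a factor of bone development (-0.365 ± 0.226), and TBXT, which encodes brachyury (-0.46 ± 0.315). The groups did not overlap for these 4 genes. Of the 14 in all, 6 did not overlap, 2 higher and 4 lower, beside 36.5% of all probe sets. SOX4 was at 12.20 and 12.08 with H2BK120R, against 12.60 and 12.21 with the vector, so its nearest arrays almost met, and its difference was -0.07 without vector replicate 1. Leaving out H2BK120R replicate 1 gave a list median of -0.23 and leaving out H2BK120R replicate 2 one of 0.01. The cofactors and turnover factors of SNAI and ZEB proteins were nearly level, with 11 higher and 6 lower of 17 measured and a median of 0.05, which was -0.015 without vector replicate 1. SMARCA4, a chromatin remodelling ATPase gene that is mutated in A549, differed by -0.50 ± 0.35 (SE), and vector replicate 1 was at 7.0 while the other arrays were between 5.90 and 6.07, so that the difference was 0.015 without it. The methyltransferase gene PRMT5 differed by -0.15 ± 0.12, the kinase gene CSNK1E by -0.215 ± 0.185 and the LIM protein gene AJUBA by -0.165 ± 0.163. Of these 17 cofactors and turnover factors, 2 did not overlap between the groups, 1 higher and 1 lower, again below the 36.5% of all probe sets.

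**Figure D4:**
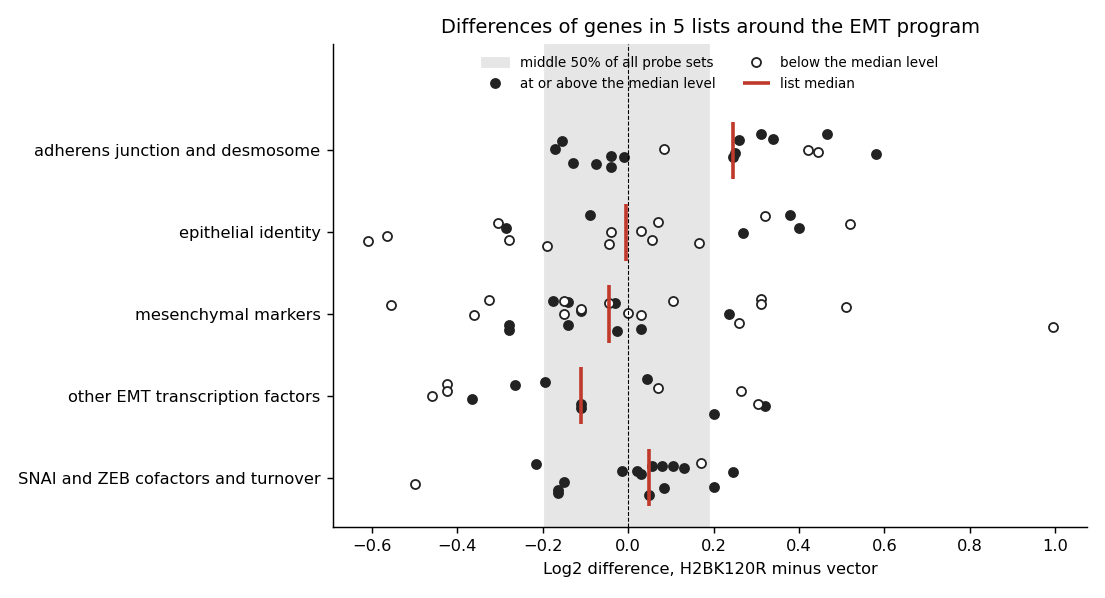
Log2 difference, H2BK120R minus vector (x axis), of each measured gene in the 5 lists (rows; vertical jitter has no meaning); filled points are genes at or above the median level of all probe sets, red bars are list medians and the grey band holds the middle 50% of all probe sets, -0.195 to 0.19. The list medians run from -0.11 for the other EMT factors to 0.245 for the junction genes, and each list has genes on both sides of 0. The band describes single probe sets and not medians of lists.

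The genes most like CDH1 across the 4 arrays were found by the root mean square distance between values after each gene's mean was subtracted. Among 9297 genes at or above the median level, the 5 nearest were UPK3B (0.015), RIOK3 (0.017), NPIPB9 (0.033), USP37 (0.038) and NKTR (0.043), in log2 units. UPK3B was at 14.05 and 13.97 with H2BK120R, against 13.34 and 13.49 with the vector. None of the 5 belongs to the lists above, and with 4 arrays such likeness holds little information.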

How the data were processed

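The 4 RNA samples, grouped by title, were hybridised to Affymetrix whole-transcript arrays. The deposited values are log2 levels scaled alike by the authors, with base and scaling inferred from their range (1.56 to 19.15) and near-equal medians. The submitters' processing notes name MAS5; the sources used here give no probe summary, background correction or genome build. Of 21448 probe sets, 17709 had 1 symbol in GEO's platform annotation. The other 3739 had no symbol or several, which were not counted apart, and were left unnamed here. The brightest probe set stood for a gene, and 0 of the 10 genes had more than 1 probe set with its symbol alone.

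Groups were compared in limma 3.58.1 (R 4.3.3, eBayes with a mean-variance trend, two-sided, 2 residual degrees of freedom, Benjamini-Hochberg adjustment across probe sets). The fit was also run on simulated arrays, whose non-zero shifts were all larger than the differences of the 10 genes. That run therefore does not show whether differences of this size could be found. The number of arrays limits the precision. The 10 genes and all lists were chosen with earlier results of these data known. Named were these genes, LDOC1, up to 4 genes per list with the smallest p, and the 5 nearest to CDH1. CACCTG was searched in the 250 bases before RefSeq starts. Alternatives were quantile normalization, equal medians, leaving out the dimmest 25% or 50%, only named probe sets, eBayes without trend or robust, a replicate block and leaving out each array. Figures used Python 3.11.15 and matplotlib 3.10.9.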

Additional observations from a re-analysis of the deposited data

How the results depend on the processing

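Under the 12 alternatives, none of the 10 genes and none of the 91 list genes that an alternative tested passed an adjusted p of 0.05 in limma. Without the dimmest 25% and 50% of probe sets, 76 and 52 list genes were tested. The differences of CDH1 (0.53 to 0.67), CDH2 (-0.575 to -0.395), ZEB1 (0.205 to 0.345), TWIST1 (0.215 to 0.475), ZEB2 (-0.25 to -0.07) and SNAI1 (0.035 to 0.725) kept their sign in each alternative that tested them. The adjusted p of CDH1 ranged from 0.425 to 0.998 and its unadjusted p from 0.00214 to 0.0329. With 1 array left out, 4 genes changed sign. EPCAM ranged from -0.55 to 0.03 (0.03 without H2BK120R replicate 1), VIM from -0.175 to 0.085 (without vector replicate 1), FN1 from -0.33 (without vector replicate 1; -0.265 without H2BK120R replicate 2) to 0.38, and SNAI2 from -0.56 to 0.24 (without vector replicate 2). Such a fit takes the single array left in a group to vary as the other group does. The count of the 10 genes at an unadjusted p under 0.05, whose alternatives were added after the data were seen, was 1 as reported, 2 without the variance trend, where CDH2 joined CDH1, 2 with the replicate block, where ZEB1 did, and 1 to 2 with 1 array left out. For the 91 list genes it was 5, 2 without the trend, and 0 (without H2BK120R replicate 2) to 8 (without vector replicate 2) with 1 array left out, also 1 without H2BK120R replicate 1 and 3 without vector replicate 1. Over all probe sets the same count was 6.7% as reported, 2.31% without H2BK120R replicate 2 and 11.3% without vector replicate 2, so 8 of 91 is below the share of all probe sets in that fit. The cause was not tested. Replicate numbers are not said to pair the samples. Deviations of same-numbered arrays correlated at 0.14 over probe sets, and with the replicate block the CDH1 difference had an adjusted p of 0.493 and the count over all probe sets at an unadjusted p under 0.05 went to 1846. No gene had a further probe set with its symbol alone to try, and the pseudocount does not apply to log2 values. Leaving out the dimmest 50% removed EPCAM, CDH2, FN1, ZEB2 and TWIST1. No detection calls were given, so changes of dim genes may be hidden by background.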

Other observations

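Other cadherin genes, picked by their symbol once results were known, were measured for 19 members besides CDH1 and CDH2. Of these 11 were higher, 7 lower and 1 equal with H2BK120R, beside 49.9% higher and 49.4% lower over all probe sets. Their median difference was 0.125, beside 0, and 18 had a mean level below the median of all probe sets. An unadjusted limma p under 0.05 was found for 2 of the 19, both lower, beside 6.7% of all probe sets. For 4 of the 19 the groups did not overlap, 1 higher and 3 lower, a smaller share than the 36.5% of all probe sets. The smallest unadjusted p-values belonged to CDH19 and CDH18, which differed by -0.875 ± 0.318 and -0.80 ± 0.34 (SE) at levels between 2.44 and 5.22, with limma adjusted p-values of 0.722 and 0.745. CDH3, which encodes P-cadherin of basal epithelia, was at 4.65 and 4.86 with H2BK120R, against 4.02 and 4.65 with the vector.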
